A study of Mus musculus with 9 samples.

Results

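The 10 genes described here are p53 itself (Trp53), the ligase gene that restrains it (Mdm2), 5 p53 targets (Cdkn1a, Ccng1, Gadd45a, Gdf15 and Trp53inp1) and 3 further inhibitors of cyclin-dependent kinases (Cdkn1b, Cdkn2a and Cdkn2b). They were chosen by symbol from a table of 31232 genes, each symbol occurs once, and all 10 had enough counts to be among the 15774 genes tested. The cells were bEnd.3, a mouse brain endothelial line immortalised with the polyoma virus middle T antigen, grown on glass coverslips in a parallel-plate flow chamber. The Vortex group was kept in an irregular vortex of 0.5 to 2 dyne/cm2, chosen by the submitters to stand for a late, enlarged aneurysm. The HSS group had laminar shear of 20 dyne/cm2, chosen for the early aneurysm at a branching vessel, and the PSS group had laminar shear of 10 dyne/cm2, chosen as that of normal brain vessels. Polyadenylated RNA was sequenced from 3 libraries per group. All groups share the same line, and cells without flow are not analysed here. Whether replicates were cultured apart is not stated, and the submitters call the RNA they sent mixed, so p-values measure the spread between these libraries, which may be technical.

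p53 is a transcription factor that cells hold at a low protein level through Mdm2, which marks it for degradation. DNA damage and other stresses break that hold, so p53 is controlled mostly at the protein, and its mRNA level is no readout of its activity. Its targets include Mdm2, which closes a feedback loop, and Cdkn1a, which halts the cell cycle by binding cyclin-dependent kinases. In endothelium, laminar flow is known to hold cells quiescent, and the inhibitors Cdkn1a and Cdkn1b are known parts of that state.

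p53 binds a response element made of a pair of adjoining decamers. The upstream 250 bases of the members' annotated starts were searched for it, with up to 2 mismatches outside its cores. RefSeq windows on GRCm38.p6 were used, matched by symbol for 9 of 10 members (12 windows), while the counts rest on GRCm39. A match was found in 1 of the 12 windows, that of the upstream start of Cdkn1a, at bases -51 to -32 from the start with 1 mismatch. Among all 32851 windows of that length, 44 (0.134%) hold such a match. Of the other p53 targets listed by symbol, 28 of 36 had windows, and Rps27l, a ribosomal protein S27-like gene, was the one with a match. The elements of these genes are shown with the core of each decamer in capitals.
Cdkn1a element, plus strand: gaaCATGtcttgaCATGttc
Rps27l element, plus strand: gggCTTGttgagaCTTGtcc

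The windows below belong to the 4 members that passed a test in at least 1 comparison, each 250 bases ending at the base before the start, with capitals marking the p53 match. That of the downstream start of Gdf15, chr8:70632096-70632345 (minus strand), lies past the upstream start of the gene and is not printed. The first is chr17:29090729-29090978 (plus strand), the second chr17:29093519-29093768 (plus), then chr6:67037408-67037657 (minus), chr8:70632457-70632706 (minus) and chr11:40755287-40755536 (minus), all on GRCm38.p6.
Cdkn1a, upstream start: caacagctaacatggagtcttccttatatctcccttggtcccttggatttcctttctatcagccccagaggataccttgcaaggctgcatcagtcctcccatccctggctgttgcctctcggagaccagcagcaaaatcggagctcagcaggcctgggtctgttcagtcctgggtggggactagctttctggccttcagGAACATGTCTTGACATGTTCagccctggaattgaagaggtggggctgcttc
Cdkn1a, downstream start: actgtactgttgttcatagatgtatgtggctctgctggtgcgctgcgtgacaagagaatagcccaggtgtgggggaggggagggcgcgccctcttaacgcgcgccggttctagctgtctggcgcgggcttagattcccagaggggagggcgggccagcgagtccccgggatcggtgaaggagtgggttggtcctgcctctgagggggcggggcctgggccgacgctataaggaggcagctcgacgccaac
Gadd45a: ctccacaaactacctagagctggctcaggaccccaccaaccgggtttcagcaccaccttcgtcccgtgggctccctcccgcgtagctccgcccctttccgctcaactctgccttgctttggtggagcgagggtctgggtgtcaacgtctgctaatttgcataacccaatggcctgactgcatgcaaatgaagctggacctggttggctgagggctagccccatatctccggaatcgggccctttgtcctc
Gdf15, upstream start: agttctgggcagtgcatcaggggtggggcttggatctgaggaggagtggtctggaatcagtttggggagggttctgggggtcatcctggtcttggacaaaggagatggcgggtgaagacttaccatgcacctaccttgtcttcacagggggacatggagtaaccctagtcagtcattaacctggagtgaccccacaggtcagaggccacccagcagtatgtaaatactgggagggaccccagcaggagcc
Ccng1: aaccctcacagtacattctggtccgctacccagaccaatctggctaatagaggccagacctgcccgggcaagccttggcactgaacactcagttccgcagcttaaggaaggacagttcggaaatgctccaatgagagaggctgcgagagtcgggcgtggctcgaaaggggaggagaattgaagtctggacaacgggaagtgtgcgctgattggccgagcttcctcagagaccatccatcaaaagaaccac

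Further motifs were searched on both strands, and no match overlapped another in the members' windows. The ATF4 composite motif TGATGCAA (0.791% of all windows) and the AP-1 motif TGANTCA (6.75%) matched in 0 of the members' 12 windows. The CRE motif TGACGTCA (1.55%) matched in that of Cdkn2b, and the E-box CACGTG (6.02%) in that of the downstream start of Gdf15. A match is a string of letters and not a shown site of binding, and its absence speaks only of these windows.

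The libraries held 17407217 to 22965802 counts. Pearson correlations of log2 CPM across genes (counts scaled to a common library size by TMM) were 0.852 to 0.962 between Vortex libraries, 0.992 to 0.993 between HSS libraries and 0.977 to 0.992 between PSS libraries. Vortex replicate 2 stood apart. Its genes of lowest GC content had a median log2 difference from PSS of -1.41, and its genes of highest GC content one of 0.90. Vortex replicate 3, the next largest, had -0.45 and 0.27. All 12 endothelial markers had counts in each group, with a summed level of 759 to 6757 CPM in Vortex, 378 to 383 CPM in HSS and 2344 to 2971 CPM in PSS. The Vortex maximum was that of replicate 2. Pecam1, an adhesion molecule of endothelial junctions, was at 1.77, 1456 and 55.1 CPM in Vortex replicates 1, 2 and 3, 1.09 to 1.68 CPM in HSS and 12.4 to 14.2 CPM in PSS. Cldn5, a tight junction protein, was at 0.820, 371 and 3.06 CPM in Vortex, at 0.0943 CPM in HSS replicate 1 and 0 in HSS replicates 2 and 3, and at 52.6 to 58.7 CPM in PSS. For these genes Vortex replicate 2 thus lay far above PSS, and Vortex replicate 1 lay close to HSS. The other markers of the 12 did not all follow. Tek was at 169 CPM in Vortex replicate 2 and 168 to 181 CPM in PSS. Kdr was at 94.3 CPM in Vortex replicate 1 and 7.12 to 7.74 CPM in HSS. Whether the libraries of all groups hold the same kind of cells, or all carry the right label, cannot be told from these files. The doubt covers HSS too, whose summed endothelial level lay below that of PSS. Each Vortex mean is one over libraries that differ in their endothelial markers. In bulk RNA, fewer cells of a type and less RNA per cell cannot be told apart. Tests that touch the Vortex libraries are given with and without replicate 2 where that changes the call, and HSS against PSS too, since the 9 libraries share 1 spread per gene.

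Trp53 mRNA varied little within each laminar group and scattered in Vortex. Its level was 73.0, 236 and 101 CPM in Vortex replicates 1, 2 and 3, 102, 100.0 and 99.0 CPM in HSS, and 116, 121 and 114 CPM in PSS. The HSS libraries lay below the PSS ones, and the Vortex libraries included both the lowest and the highest value of the 9. The log2 fold change was 0.22 ± 0.37 (SE) for Vortex against PSS, 0.44 ± 0.37 for Vortex against HSS and -0.22 ± 0.37 for HSS against PSS, and 0 of these 3 passed (adjusted p = 0.734, 0.481 and 0.782). Here and below, p-values of single genes are from the quasi-likelihood F test of edgeR, adjusted after Benjamini and Hochberg over the whole table of tested genes, and a gene passed at an adjusted p under 0.05. With Vortex replicate 2 left out the sign turned in both Vortex comparisons. Vortex against PSS was then -0.43 ± 0.15 (adjusted p = 0.0455) and Vortex against HSS -0.21 ± 0.15 (adjusted p = 0.335). HSS against PSS passed in a fit of only the HSS and PSS libraries (-0.25, adjusted p = 0.0315).

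Mdm2, which encodes the ligase that p53 induces and that degrades it, was at 172, 67.0 and 127 CPM in Vortex, 156, 148 and 149 CPM in HSS, and 120.1, 122 and 85.3 CPM in PSS. Each HSS library lay above each PSS library, while Vortex spanned both. The log2 fold change was 0.16 ± 0.31 for Vortex against PSS, -0.30 ± 0.31 for Vortex against HSS and 0.47 ± 0.31 for HSS against PSS (adjusted p = 0.768, 0.577 and 0.420). The last was at adjusted p = 0.0545 without Vortex replicate 2. The sign for Vortex against PSS turned without Vortex replicate 1 (-0.20) and with scaling by library totals (-0.01).

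**Figure D1:**
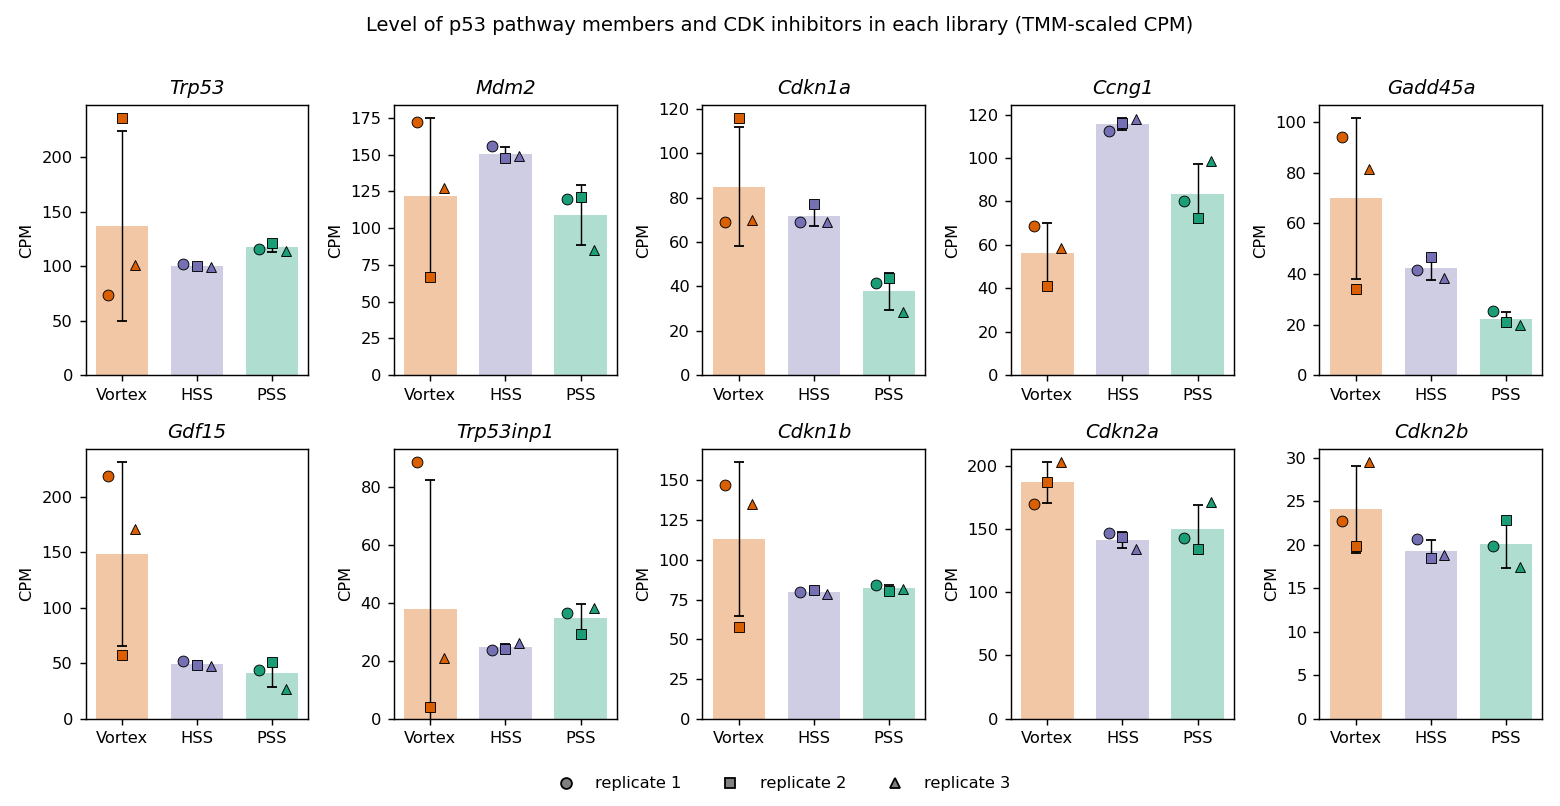
TMM-scaled CPM (y axis, linear from 0) of the 10 genes in Vortex, HSS and PSS libraries. Bars are group means, error bars the SD (n = 3) and points the single libraries by replicate. For Cdkn1a and Gadd45a all Vortex and HSS points lie above all PSS points, and Vortex replicate 2 is the highest of the 9 libraries for Trp53 and the lowest for Trp53inp1.

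Cdkn1a, the p53 target that inhibits cyclin-dependent kinases, rose in Vortex against PSS. It was at 68.9, 116 and 70.0 CPM in Vortex, 69.0, 77.0 and 69.1 CPM in HSS, and 41.3, 43.8 and 28.4 CPM in PSS. No library of Vortex or HSS overlapped the PSS range, and the Vortex and HSS ranges overlapped each other. It averaged 84.9 ± 26.8 CPM in Vortex and 37.8 ± 8.28 CPM in PSS (mean ± SD, n = 3 each). The log2 fold change was 1.17 ± 0.26 (adjusted p = 0.0202). Without Vortex replicate 2 this was 0.87 ± 0.18 (adjusted p = 0.0042). The call ended without PSS replicate 1, 2 or 3 (adjusted p = 0.0762, 0.053 and 0.0704) and in a fit of only the 6 libraries compared (0.103).

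For HSS against PSS, Cdkn1a averaged 71.7 ± 4.57 CPM in HSS and 37.8 ± 8.28 CPM in PSS, a log2 fold change of 0.92 ± 0.26 that did not pass (adjusted p = 0.063). It passed without Vortex replicate 2 (0.92 ± 0.16, adjusted p = 0.00213), without Vortex replicate 1 (adjusted p = 0.0404) and in a fit of only the HSS and PSS libraries (adjusted p = 0.00289). Between Vortex and HSS the log2 fold change was 0.24 ± 0.26 (adjusted p = 0.585), and -0.05 ± 0.18 without Vortex replicate 2. AC167363.2, a gene that overlaps Cdkn1a on the opposite strand in the annotation, has no row by that name among the genes counted. The strand setting of the counting was not given in the sources used here, so whether Cdkn1a counts include its reads cannot be told.

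Ccng1, a p53 target that encodes cyclin G1, fell in Vortex against HSS. It was at 68.7, 40.9 and 58.7 CPM in Vortex, 113, 116 and 118 CPM in HSS, and 80.3, 72.2 and 98.4 CPM in PSS. The 3 groups did not overlap, with Vortex lowest and HSS highest. The means were 56.1 ± 14.1 CPM in Vortex and 116 ± 2.85 CPM in HSS, and the log2 fold change was -1.04 ± 0.22 (adjusted p = 0.0294). Leaving out Vortex replicate 2 gave -0.86 ± 0.16 (adjusted p = 0.0046). The call ended without PSS replicate 1 (adjusted p = 0.0682), HSS replicate 1, 2 or 3 (0.128, 0.128 and 0.139) or Vortex replicate 3 (0.0572), and in a fit of only the 6 libraries compared (0.0764). Against PSS the log2 fold change was -0.58 ± 0.22 in Vortex (adjusted p = 0.117) and 0.47 ± 0.22 in HSS (adjusted p = 0.244), and that of HSS passed without Vortex replicate 2 (0.46 ± 0.14, adjusted p = 0.0285). Vortex against PSS passed without Vortex replicate 1 (-0.79, adjusted p = 0.0475). It was -0.02 with a GC trend removed from each library (adjusted p = 0.949) and -0.16 with Vortex replicate 2 also left out (adjusted p = 0.286). Without 1 HSS library, calls in Vortex against HSS ended for most genes, here and below. Over all tested genes 25 or 26 calls then remained, and 66 in the fit of 6 libraries, beside 1111 with all libraries. An ended call there is thus not particular to a gene.

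Gadd45a, a stress gene that p53 induces and that slows the cell cycle and aids DNA repair, rose in Vortex against PSS. Its level was 94.2, 33.9 and 81.3 CPM in Vortex, 41.4, 46.9 and 38.2 CPM in HSS, and 25.4, 20.9 and 19.9 CPM in PSS. All Vortex and HSS libraries lay above all PSS libraries, and Vortex replicate 2 lay below HSS. The log2 fold change of Vortex against PSS was 1.66 ± 0.34 (adjusted p = 0.015), and 1.99 ± 0.16 without Vortex replicate 2 (adjusted p = 1.63e-05). That call ended without PSS replicate 1, 2 or 3 (adjusted p = 0.0602, 0.066 and 0.068) and in a fit of only the 6 libraries compared (0.0832). HSS against PSS was at 0.93 ± 0.34 (adjusted p = 0.131), and at 0.93 ± 0.14 without Vortex replicate 2 (adjusted p = 0.000928). Vortex against HSS was at 0.73 ± 0.33 (adjusted p = 0.201), and at 1.06 ± 0.15 without Vortex replicate 2 (adjusted p = 0.00166). An opposite-strand gene that overlaps it, E230016M11Rik, had 4 to 116 counts per library.

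Gdf15 encodes a secreted stress cytokine that p53 and the ATF4 pathway both induce. It was at 219, 57.1 and 171 CPM in Vortex, 52.3, 48.3 and 47.7 CPM in HSS, and 44.3, 51.4 and 26.7 CPM in PSS. The Vortex libraries lay above the other 6, with replicate 2 close to them. Gdf15 rose in Vortex against PSS, with 149 ± 83.0 CPM in Vortex and 40.8 ± 12.7 CPM in PSS and a log2 fold change of 1.87 ± 0.45 (adjusted p = 0.0265). Leaving out Vortex replicate 2 gave 2.25 ± 0.23 (adjusted p = 8.996e-05). The call ended without any other single library, at adjusted p = 0.0966, 0.066 and 0.103 without PSS replicates 1, 2 and 3, 0.0532, 0.0532 and 0.053 without HSS replicates 1, 2 and 3, and 0.051 and 0.0649 without Vortex replicates 1 and 3. It also ended in a fit of only the 6 libraries compared (0.108). Against HSS, Vortex was at 1.59 ± 0.44 (adjusted p = 0.0607), and at 1.98 ± 0.23 without Vortex replicate 2 (adjusted p = 0.000564). HSS against PSS was at 0.28 ± 0.43 (adjusted p = 0.768), and the groups overlapped.

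Trp53inp1, a p53-induced nuclear protein that aids p53 and autophagy, varied most among Vortex libraries. It was at 88.4, 3.86 and 20.8 CPM in Vortex, 23.7, 24.0 and 26.1 CPM in HSS, and 36.5, 29.0 and 38.2 CPM in PSS. The HSS libraries lay below the PSS ones, and the Vortex libraries held the highest value and the 2 lowest of the 9. Log2 fold changes were 0.12 ± 0.79 for Vortex against PSS, 0.61 ± 0.80 for Vortex against HSS and -0.49 ± 0.80 for HSS against PSS (adjusted p = 0.938, 0.668 and 0.776). The signs of both Vortex comparisons turned without Vortex replicate 1 (-1.52 and -0.996), and the first also with scaling by library totals (-0.06).

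**Figure D2:**
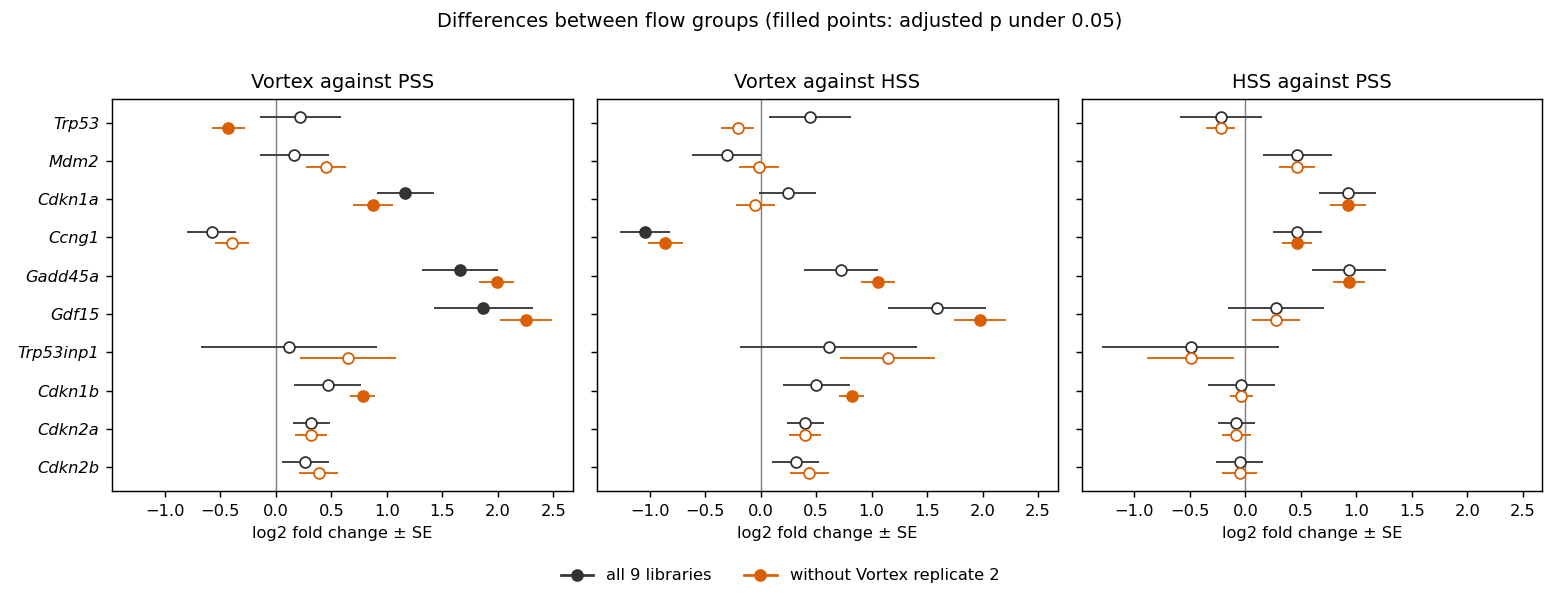
Log2 fold change (x axis) with its SE for each member in Vortex against PSS, Vortex against HSS and HSS against PSS. Dark points are fits of all 9 libraries, orange points fits without Vortex replicate 2, and filled points have an adjusted p under 0.05. Cdkn1a, Gadd45a and Gdf15 are filled in both fits of Vortex against PSS, and Ccng1 in both fits of Vortex against HSS.

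Of the cyclin-dependent kinase inhibitors besides Cdkn1a, 0 of 3 passed by edgeR in any comparison with all libraries and no GC trend removed. There 1 had an unadjusted p under 0.05, Cdkn2a in Vortex against HSS (0.039). With the GC trend removed, Cdkn1b passed in both Vortex comparisons, as given below. Cdkn1b, the close relative of Cdkn1a that restrains cells at rest, was at 147, 57.6 and 135 CPM in Vortex, 79.8, 81.3 and 78.7 CPM in HSS, and 84.1, 80.1 and 81.8 CPM in PSS. Vortex replicates 1 and 3 lay above the laminar libraries and Vortex replicate 2 below them. The log2 fold change was 0.47 ± 0.30 for Vortex against PSS and 0.50 ± 0.30 for Vortex against HSS (adjusted p = 0.345 and 0.328), and without Vortex replicate 2 it was 0.78 ± 0.11 and 0.82 ± 0.11 (adjusted p = 0.000593 and 0.00116). HSS against PSS was at -0.04 ± 0.30 (adjusted p = 0.961).

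Cdkn2a encodes INK4A, which blocks the kinases of cyclin D, and ARF, which blocks Mdm2, from overlapping transcripts that a count per gene cannot separate. Its level was 170.0, 187 and 203 CPM in Vortex, 147, 143 and 134 CPM in HSS, and 143, 134 and 172 CPM in PSS. The Vortex libraries lay above HSS and met the PSS range at 1 library. Vortex against PSS was at 0.32 ± 0.17, Vortex against HSS at 0.40 ± 0.17 and HSS against PSS at -0.08 ± 0.17 (adjusted p = 0.235, 0.162 and 0.829). Cdkn2b, the INK4B gene that lies beside Cdkn2a, was at 22.8, 19.9 and 29.6 CPM in Vortex, 20.7, 18.5 and 18.8 CPM in HSS, and 19.8, 22.9 and 17.5 CPM in PSS. Its ranges overlapped in every comparison, with log2 fold changes of 0.26 ± 0.21, 0.32 ± 0.21 and -0.05 ± 0.21 (adjusted p = 0.447, 0.377 and 0.918) for Vortex against PSS, Vortex against HSS and HSS against PSS.

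Levels of different genes were compared as FPKM, which divides by gene length. Cdkn2a was the highest of the 10 in every group, at 148 ± 18.1 FPKM in Vortex, 123 ± 5.52 FPKM in HSS and 133 ± 13.7 FPKM in PSS (mean ± SD, n = 3). Trp53inp1 was the lowest, at 5.35 ± 6.24, 3.88 ± 0.206 and 5.58 ± 0.697 FPKM in Vortex, HSS and PSS. In PSS the others followed Cdkn2a in the order Trp53 (30.3 ± 1.70), Ccng1 (24.9 ± 3.32), Gdf15 (23.2 ± 7.70), Mdm2 (22.5 ± 4.76), Cdkn1b (18.9 ± 0.690), Cdkn2b (15.1 ± 2.38), Gadd45a (13.1 ± 1.93) and Cdkn1a (11.2 ± 2.70 FPKM). Neighbours in this order overlapped within their SDs from Ccng1 to Cdkn1b and from Cdkn2b to Cdkn1a, and not elsewhere. In HSS the order below Cdkn2a was led by Ccng1 (33.6 ± 0.858 FPKM) and Mdm2 (30.3 ± 0.839 FPKM), and in Vortex by Gdf15 (74.9 ± 41.5 FPKM) and Gadd45a (36.9 ± 16.9 FPKM), both with wide spreads.

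Counted over the 10 members, 3 passed in Vortex against PSS, all higher, where 13.4% of all tested genes passed (8.33% higher and 5.03% lower). In Vortex against HSS 1 of 10 passed, lower, where 7.04% of all genes passed (4.37% higher and 2.67% lower). In HSS against PSS 0 of 10 passed by edgeR, where 7.87% of all genes passed (4.18% higher and 3.7% lower). There, 2 of 10 had an unadjusted p under 0.05, where 23.4% of all genes did (29.8% in Vortex against PSS and 26.9% in Vortex against HSS), and the DESeq2 Wald test called 1. With Vortex replicate 2 left out, the counts were 5 (4 higher, 1 lower) for Vortex against PSS, 4 (3 higher, 1 lower) for Vortex against HSS and 3 (all higher) for HSS against PSS, beside 36.3%, 23.9% and 29.1% of all genes. In fits of only the 6 libraries compared, the counts were 0, 0 and 6, beside 0.488%, 0.438% and 40.8% of all genes. Those 6 were Cdkn1a, Gadd45a, Ccng1 and Mdm2, higher in HSS, and Trp53 and Trp53inp1, lower in HSS.

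The ranges of the groups did not overlap for 4 of 10 members in Vortex against PSS, 3 higher and 1 lower, beside 30% of all genes (15.6% and 14.4%). In Vortex against HSS they did not overlap for 3, 2 higher and 1 lower, beside 36.4% of all genes (19.5% and 16.9%), and in HSS against PSS for 6, 4 higher and 2 lower, beside 56.2% (29.9% and 26.3%). The shares of members are near these backgrounds. The median log2 fold change of the members was 0.29, 0.42 and 0.12 for Vortex against PSS, Vortex against HSS and HSS against PSS, beside 0.11, 0.10 and -0.00 over all tested genes, and without Vortex replicate 2 it was 0.55, 0.42 and 0.12, beside 0.01, 0.03 and -0.00. Vortex against PSS and HSS against PSS share the PSS libraries.

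The GC content of the members ranged widely. Vortex replicate 2 was the lowest of the 9 libraries for Trp53inp1 (38.8% GC), Ccng1 (40.8%), Cdkn1b (43.1%) and Mdm2 (46.2%), and the highest for Trp53 (53.3%) and Cdkn1a (54.4%). Gdf15 had the highest GC content of the 10, at 61.3%, and was lower in Vortex replicate 2 than in the other Vortex libraries. Cdkn2a (60.2%) and Cdkn2b (55.9%) were not highest in Vortex replicate 2 either. They were at 187 and 19.9 CPM there, and at 203 and 29.6 CPM in Vortex replicate 3. With a smooth GC trend removed from each library, an alternative added after the data were seen, Vortex against PSS was 0.82 for Cdkn1a (adjusted p = 0.022) and 1.60 for Gadd45a (adjusted p = 0.0243), and Vortex against HSS was -0.61 for Ccng1 (adjusted p = 0.0433). Cdkn1b then passed in Vortex against PSS (0.77, adjusted p = 0.0244) and against HSS (0.72, adjusted p = 0.0323), and Gdf15 no longer passed in Vortex against PSS (1.63, adjusted p = 0.0855). In HSS against PSS, Cdkn1a (0.80, adjusted p = 0.0244) and Ccng1 (0.59, adjusted p = 0.0467) passed. When Vortex replicate 2 was left out besides, Trp53 was -0.57 in Vortex against PSS (adjusted p = 0.0076), Trp53inp1 was 1.22 in Vortex against HSS (adjusted p = 0.0377) and Mdm2 was 0.51 in HSS against PSS (adjusted p = 0.0412).

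By profile over the 9 libraries, the genes most like Cdkn1a were Stk10, Nomo1 and Plbd2, with root mean square differences of 0.11, 0.12 and 0.12 in centred log2 CPM, where Cdkn1a itself varied by 0.56. Those most like Mdm2 were Pan3, Srrm2 and Map3k20 (0.09, 0.11 and 0.11, with Mdm2 itself at 0.41). The search covered 10524 genes, and 0 of these 6 genes is in the lists described next.

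Of the wider set of 36 p53 target genes, 35 were tested. In Vortex against PSS 8 rose, 1 fell and 26 did not pass, with a median log2 fold change of 0.38. In Vortex against HSS 2 rose, 1 fell and 32 did not pass (median 0.19), and in HSS against PSS 7 rose, 1 fell and 27 did not pass (median 0.11). Over all tested genes 8.33% rose and 5.03% fell in Vortex against PSS, 4.37% and 2.67% in Vortex against HSS, and 4.18% and 3.7% in HSS against PSS. With Vortex replicate 2 left out, 13 rose and 3 fell, 6 rose and 5 fell, and 10 rose and 3 fell in these comparisons (medians 0.30, 0.11 and 0.10). Of all genes, 19.7% then rose and 16.6% fell, 13.9% rose and 10% fell, and 15.4% rose and 13.7% fell. Cd82, a membrane protein that suppresses metastasis, was at 148, 102 and 133 CPM in Vortex, 116, 120 and 118 CPM in HSS, and 45.0, 46.6 and 45.9 CPM in PSS. It rose in Vortex (1.48 ± 0.18) and in HSS (1.36 ± 0.18) against PSS (adjusted p = 0.0032 and 0.0039). Tnfrsf10b, a death receptor for TRAIL, was at 119, 148 and 144 CPM in Vortex, 122, 124 and 120 CPM in HSS, and 67.0, 69.9 and 58.8 CPM in PSS. It rose by 1.07 ± 0.17 in Vortex against PSS (adjusted p = 0.0061) and also passed, higher, in HSS against PSS. Dram1, a lysosomal regulator of autophagy, was at 97.3, 32.3 and 90.5 CPM in Vortex, 118, 124 and 122 CPM in HSS, and 19.0, 19.5 and 20.1 CPM in PSS. It rose by 2.63 ± 0.37 in HSS against PSS (adjusted p = 0.0047) and also passed, higher, in Vortex against PSS. Both calls of Cd82, that of Tnfrsf10b in Vortex and that of Dram1 in HSS held without each of the 9 libraries in turn. The Vortex calls of Cd82 and Tnfrsf10b ended in the fit of 6 libraries (adjusted p = 0.0512 and 0.069). The call of Tnfrsf10b in HSS ended without PSS replicate 1 or 2 or any HSS library. That of Dram1 in Vortex ended without PSS replicate 1 (adjusted p = 0.0602).

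Perp, a desmosomal protein of p53-dependent death, was at 22.2, 20.5 and 27.0 CPM in Vortex, 9.48, 10.9 and 10.5 CPM in HSS, and 22.9, 22.0 and 24.1 CPM in PSS. It rose in Vortex against HSS by 1.17 ± 0.19 (adjusted p = 0.0138) and fell in HSS against PSS (-1.16 ± 0.19, adjusted p = 0.0083). Btg2, which restrains proliferation, was at 36.1, 43.5 and 68.4 CPM in Vortex, 131, 143 and 147 CPM in HSS, and 96.2, 93.0 and 145 CPM in PSS. It fell in Vortex against HSS (-1.51 ± 0.28, adjusted p = 0.0184). The calls of Perp and Btg2 in Vortex against HSS ended without any 1 of the HSS libraries and in the fit of 6 libraries. In those fits 25 or 26 and 66 of all tested genes passed, beside 1111 with all libraries. The call of Perp in HSS against PSS ended without PSS replicate 1 (adjusted p = 0.0508) or HSS replicate 1, 2 or 3 (0.0651, 0.0554 and 0.0597). Fas, a death receptor, was at 167, 8.39 and 134 CPM in Vortex, 156, 155 and 165 CPM in HSS, and 9.30, 9.68 and 11.4 CPM in PSS, so that Vortex replicate 2 lay with PSS. It rose in Vortex (3.35 ± 0.82) and in HSS (3.97 ± 0.84) against PSS (adjusted p = 0.029 and 0.0233). The Vortex call held without Vortex replicate 1 or 2 (3.89 without replicate 2, adjusted p = 2.04e-07), ended without any other single library (adjusted p up to 0.118) and ended in the fit of 6 libraries (0.107). The HSS call ended on leaving out any 1 of the 6 HSS and PSS libraries, at an adjusted p of 0.113 at most. Bax, the apoptosis effector, was at 21.3, 49.4 and 18.2 CPM in Vortex, 17.4, 19.6 and 17.7 CPM in HSS, and 20.0, 15.7 and 19.0 CPM in PSS. Rps27l, with the second response element shown above, was at 93.0, 173 and 82.9 CPM in Vortex, 70.9, 88.4 and 75.2 CPM in HSS, and 102, 78.5 and 160.4 CPM in PSS. Fas, Bax and Rps27l were chosen after their values were seen.

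**Figure D3:**
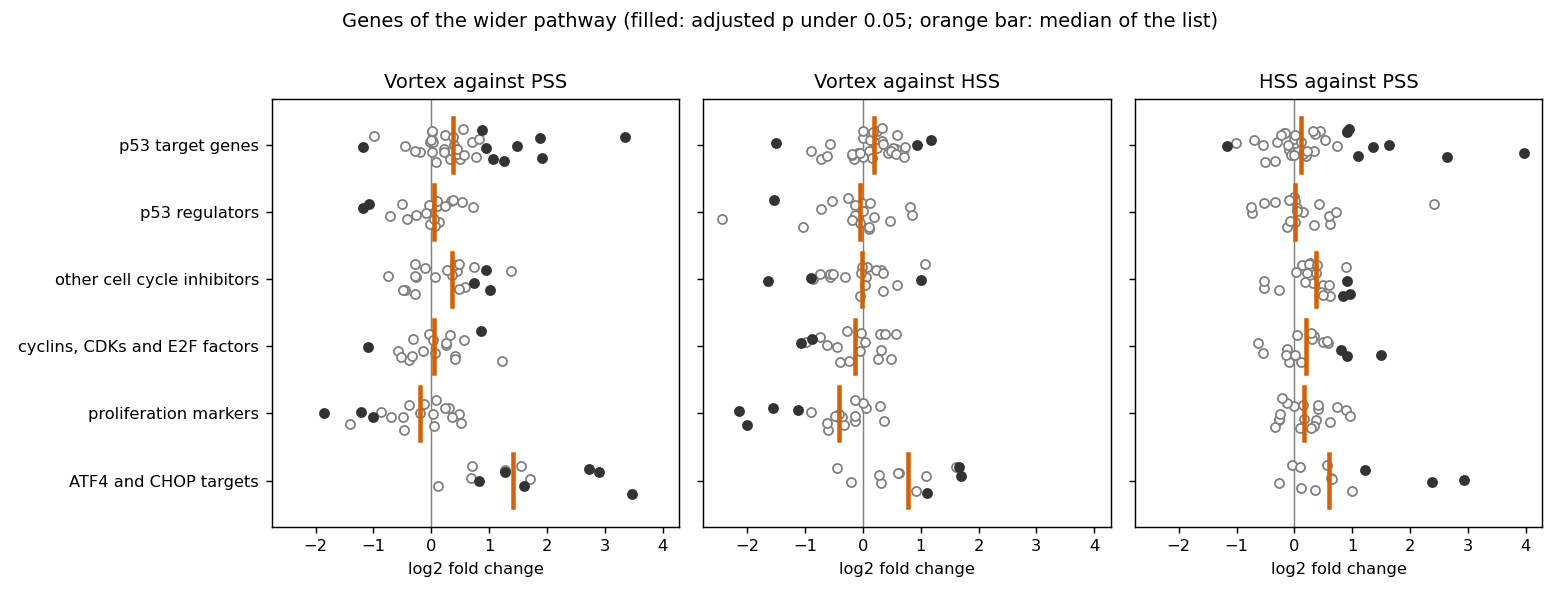
Log2 fold change (x axis) of every tested gene in 6 lists around p53 and the cell cycle, in Vortex against PSS, Vortex against HSS and HSS against PSS. Filled points have an adjusted p under 0.05 and orange bars are list medians. In Vortex against PSS the median is 1.42 for the ATF4 and CHOP targets, a list that includes Atf4 and Ddit3, and -0.20 for the proliferation markers.

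Of 19 tested regulators of p53, 2 fell and 0 rose in Vortex against PSS, 1 fell and 0 rose in Vortex against HSS, and 0 passed in HSS against PSS by edgeR (medians 0.04, -0.05 and 0.01), beside 13.4%, 7.04% and 7.87% of all genes called. In the last, 4 had an unadjusted p under 0.05 and DESeq2 called 2. Without Vortex replicate 2, 4 rose and 2 fell, 3 rose and 4 fell, and 3 rose and 2 fell in these comparisons (medians 0.01, 0.01 and 0.01), beside 36.3%, 23.9% and 29.1% of all genes called. Atm, the kinase that signals DNA breaks to p53, was at 43.6, 16.2 and 31.2 CPM in Vortex, 90.1, 85.7 and 86.4 CPM in HSS, and 69.1, 71.1 and 67.0 CPM in PSS. It fell in Vortex against PSS (-1.19 ± 0.31, adjusted p = 0.0354) and against HSS (-1.53 ± 0.31, adjusted p = 0.0254). Chek1, the checkpoint kinase of stalled replication, was at 14.8, 16.2 and 20.2 CPM in Vortex, 30.2, 27.0 and 27.9 CPM in HSS, and 33.1, 31.9 and 42.7 CPM in PSS, and fell in Vortex against PSS (-1.07 ± 0.20, adjusted p = 0.0112). Against HSS it did not pass (-0.73 ± 0.20, adjusted p = 0.059), and passed without Vortex replicate 2 (-0.69 ± 0.19, adjusted p = 0.0274). The Atm and Chek1 groups did not overlap in these comparisons. The Atm call against PSS held without Vortex replicate 1 or 2 and ended without any other library, that against HSS ended without PSS replicate 1, Vortex replicate 3 or any HSS library, and the Chek1 call ended without PSS replicate 1. In HSS against PSS the smallest p-values were those of Rpl11, a ribosomal protein that restrains Mdm2 (-0.74 ± 0.24, adjusted p = 0.101), and Trp63, a relative of p53 found at up to 1.57 CPM (2.41 ± 0.85, adjusted p = 0.122). Both passed without Vortex replicate 2, Rpl11 at -0.74 ± 0.22 (adjusted p = 0.0269) and Trp63 at 2.42 ± 0.50 (adjusted p = 0.00541).

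Of 21 other tested cell cycle inhibitors, 3 rose and 0 fell in Vortex against PSS, 1 rose and 2 fell in Vortex against HSS, and 3 rose and 0 fell in HSS against PSS (medians 0.35, -0.01 and 0.38), beside 13.4%, 7.04% and 7.87% of all genes called. In Vortex against PSS the share of this list is near that of all genes. Tob2, an antiproliferative relative of Btg2, rose in Vortex (0.95 ± 0.19) and in HSS (0.90 ± 0.19) against PSS (adjusted p = 0.0138 and 0.0233). Its relative Tob1 rose in HSS against PSS, with 149, 147 and 146 CPM in HSS and 83.4, 81.1 and 82.8 CPM in PSS (0.84 ± 0.16, adjusted p = 0.017). Foxo3, a transcription factor that induces Cdkn1b, was at 93.8, 57.4 and 87.2 CPM in Vortex, 75.9, 76.7 and 76.6 CPM in HSS, and 43.9, 45.8 and 28.5 CPM in PSS. It rose by 1.01 ± 0.25 in Vortex against PSS (adjusted p = 0.029) and also passed, higher, in HSS against PSS. Cdkn3, a phosphatase of cyclin-dependent kinases whose level follows dividing cells, fell in Vortex against HSS (-1.64 ± 0.26, adjusted p = 0.0138). Btg1, of the same family as Btg2, was at 283, 162 and 242 CPM in Vortex and 118, 109 and 116 CPM in HSS, and rose (1.00 ± 0.22, adjusted p = 0.0296). The calls of Foxo3 in Vortex and of Btg1 ended with scaling by library totals. Among the libraries left out, the Foxo3 call in Vortex held only without Vortex replicate 2. Its call in HSS held only without Vortex replicate 1 or 2. The calls of Tob1, Cdkn3 and Btg1 ended without any HSS library. That of Tob1 ended without any PSS library too, and that of Btg1 without PSS replicate 1 or 2 or Vortex replicate 3. The call of Tob2 ended without PSS replicate 1 in Vortex, and without PSS replicate 1 or 3 or any HSS library in HSS. With Vortex replicate 2 left out the list had 9 higher and 2 lower, 5 higher and 6 lower, and 10 higher and 0 lower in the 3 comparisons in that order (medians 0.28, -0.08 and 0.38), beside 36.3%, 23.9% and 29.1% of all genes called.

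Cyclins, cyclin-dependent kinases and E2F factors, on which these inhibitors act, had 2 or 3 calls of 18 in each comparison with all libraries. Among them 1 rose and 1 fell in Vortex against PSS, 0 rose and 2 fell in Vortex against HSS, and 3 rose and 0 fell in HSS against PSS (medians 0.05, -0.14 and 0.20), beside 13.4%, 7.04% and 7.87% of all genes called. Without Vortex replicate 2, 2 rose and 7 fell, 0 rose and 6 fell, and 6 rose and 1 fell, beside 36.3%, 23.9% and 29.1% of all genes called, and the medians were -0.31, -0.53 and 0.20, so that the sign of the first turned. Ccna2, the cyclin of S phase and mitosis, was at 81.0, 107 and 115 CPM in Vortex and 212, 211 and 215 CPM in HSS, and fell (-1.07 ± 0.19, adjusted p = 0.0175). Cdc25c, a phosphatase that starts mitosis, was at 21.3, 23.4 and 24.4 CPM in Vortex and 42.4, 41.9 and 43.6 CPM in HSS, and fell (-0.89 ± 0.19, adjusted p = 0.031). Ccnd1, cyclin D1, was at 248, 251 and 254 CPM in HSS and 145, 148 and 139 CPM in PSS, and rose by 0.80 ± 0.19 (adjusted p = 0.0372). Cdc25b, a phosphatase that activates cyclin-dependent kinases, rose in Vortex (0.87 ± 0.20) and in HSS (0.92 ± 0.20) against PSS (adjusted p = 0.021 and 0.0233). Ccne2, cyclin E2, fell in Vortex against PSS (-1.10 ± 0.31, adjusted p = 0.049), a call that held only without PSS replicate 2 or Vortex replicate 2 and a sign that turned with the GC trend removed (0.10). The calls of Ccna2 and Cdc25c ended without any HSS library (Cdc25c also without PSS replicate 1 or 2 or Vortex replicate 3). Those of Ccnd1 and Cdc25b ended without any PSS or HSS library, Ccnd1 also without Vortex replicate 3 and Cdc25b in Vortex also with scaling by library totals.

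Proliferation markers had 0 calls higher in any comparison with all libraries. Of 19, 3 fell and 0 rose in Vortex against PSS, 4 fell and 0 rose in Vortex against HSS, and 0 passed in HSS against PSS by edgeR (medians -0.20, -0.42 and 0.16), beside 13.4%, 7.04% and 7.87% of all genes called. In the last, 3 had an unadjusted p under 0.05 and DESeq2 called 0. With Vortex replicate 2 left out, 15, 16 and 0 fell and 0, 0 and 4 rose (medians -0.88, -0.95 and 0.16), where 16.6%, 10% and 13.7% of all genes fell and 19.7%, 13.9% and 15.4% rose. The Vortex range lay below that of PSS for 5 of 19 and above it for 0, beside 14.4% and 15.6% of all genes. Vortex replicate 2 lay above PSS for some markers. Mcm2 was at 159.7, 690.2 and 271 CPM in Vortex and 373, 402 and 309.5 CPM in PSS. Mcm3 was at 85.2, 623 and 222 CPM in Vortex and 302, 321 and 285 CPM in PSS. Both were chosen after their values were seen. Mki67, the Ki-67 antigen of cycling cells, was at 163, 70.7 and 173 CPM in Vortex, 590, 595 and 603 CPM in HSS, and 506, 490 and 477 CPM in PSS. It fell in Vortex against PSS (-1.86 ± 0.30, adjusted p = 0.00703) and against HSS (-2.13 ± 0.30, adjusted p = 0.0102). Bub1, a mitotic checkpoint kinase, fell in both too (-1.22 ± 0.23 and -1.55 ± 0.23, adjusted p = 0.0107 and 0.0112). Both calls against PSS held without each library in turn, and both against HSS ended without any HSS library. Foxm1 and Plk1, a transcription factor and a kinase of mitosis, had the smallest p in HSS against PSS (0.90 ± 0.36 and 0.97 ± 0.40, adjusted p = 0.167 and 0.18), and Vortex replicate 2 was the highest of the 9 libraries for both, at 367 and 155 CPM. Without that library both passed (0.90 ± 0.15 and 0.97 ± 0.21, adjusted p = 0.00182 and 0.00643).

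The ATF4 pathway, a stress response to amino acid shortage and misfolded protein that also induces Gdf15 and Gadd45a, had 0 calls lower. The list of 12 genes holds targets of ATF4 and CHOP and also Atf4 and Ddit3, which encode these factors. Of the 12, 6 rose and 0 fell in Vortex against PSS, 3 rose and 0 fell in Vortex against HSS, and 3 rose and 0 fell in HSS against PSS (medians 1.42, 0.78 and 0.59), where 8.33%, 4.37% and 4.18% of all genes rose. Without Vortex replicate 2, 11, 9 and 6 rose and 0 fell (medians 1.76, 0.95 and 0.59), where 19.7%, 13.9% and 15.4% of all genes rose. Atf4 itself was at 493, 517 and 503 CPM in Vortex, 231, 241 and 233 CPM in HSS, and 289, 269 and 292 CPM in PSS, and rose against PSS (0.83 ± 0.14, adjusted p = 0.0073) and against HSS (1.10 ± 0.14, adjusted p = 0.0083). Trib3, a pseudokinase that ATF4 and CHOP induce, was at 109, 40.1 and 67.8 CPM in Vortex, 23.0, 22.4 and 21.8 CPM in HSS, and 9.90, 9.68 and 9.33 CPM in PSS, and rose in Vortex against PSS (2.90 ± 0.33, adjusted p = 0.0028), as did Chac1, a glutathione-degrading enzyme (3.46 ± 0.54, adjusted p = 0.0062), in HSS against PSS too (2.38 ± 0.52, adjusted p = 0.0272). Asns, asparagine synthetase, was at 871, 418 and 482 CPM in Vortex and 186, 189 and 186 CPM in HSS, and rose (1.66 ± 0.28, adjusted p = 0.0156). Slc7a11, the cystine transporter, was at 451, 440.0 and 451 CPM in HSS and 66.5, 78.5 and 31.1 CPM in PSS, and rose (2.93 ± 0.51, adjusted p = 0.0114). The calls of Atf4 and Asns against HSS ended without any HSS library, that of Atf4 against PSS without PSS replicate 1 (adjusted p = 0.0502) and in the fit of 6 libraries (0.0788), that of Chac1 in HSS without any HSS or PSS library, and that of Slc7a11 without PSS replicate 1 or 3. Ddit3, which encodes CHOP and was chosen after its values were seen, was at 57.0, 4.48 and 20.2 CPM in Vortex, 9.85, 8.86 and 8.10 CPM in HSS, and 8.34, 8.32 and 8.24 CPM in PSS.

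**Figure D4:**
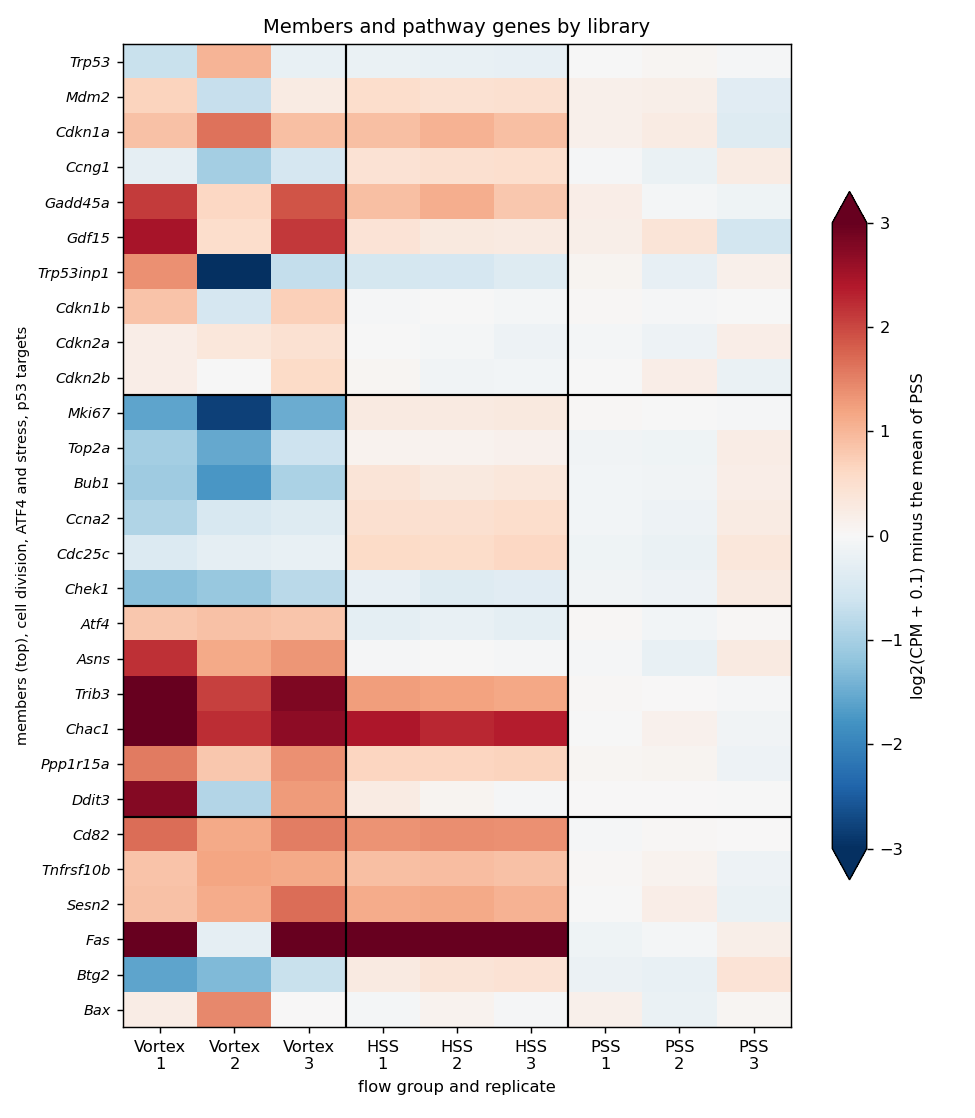
Difference of each library from the PSS mean in log2(CPM + 0.1) (colour, saturated at -3 and 3) for the 10 members and 18 pathway genes, part of them chosen after their values were seen. Columns are Vortex, HSS and PSS libraries. Mki67, Top2a and Bub1 are blue and Atf4, Asns and Trib3 red in all 3 Vortex libraries, while Trp53inp1, Ddit3 and Fas differ in colour between Vortex replicate 2 and Vortex replicate 1. Other proliferation markers, such as Mcm2 and Mcm3, are not shown and were highest in Vortex replicate 2.

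Of 37 senescence-associated genes, mostly secreted factors, 33 were tested. In Vortex against PSS 16 rose and 2 fell, in Vortex against HSS 3 rose and 0 fell, and in HSS against PSS 9 rose and 0 fell (medians 1.44, 0.30 and 1.07), where 8.33%, 4.37% and 4.18% of all genes rose and 5.03%, 2.67% and 3.7% fell. With Vortex replicate 2 left out, 23 rose and 3 fell, 14 rose and 3 fell, and 21 rose and 4 fell (medians 1.52, 0.47 and 1.07), where 19.7%, 13.9% and 15.4% of all genes rose and 16.6%, 10% and 13.7% fell. Ccl2, a chemokine for monocytes, was at 401, 96.7 and 207 CPM in Vortex, 456, 497 and 458 CPM in HSS, and 16.3, 19.0 and 12.6 CPM in PSS, and rose in Vortex (3.88 ± 0.47) and in HSS (4.88 ± 0.49) against PSS (adjusted p = 0.0032 and 0.0016). Ccl20, a chemokine for lymphocytes, was at 54.6, 7.86 and 63.1 CPM in Vortex, 23.3, 24.4 and 21.5 CPM in HSS, and 0.556, 0.535 and 0.568 CPM in PSS. It rose in Vortex against PSS (6.22 ± 0.75, adjusted p = 0.0032). Csf1, a growth factor of macrophages, rose in HSS against PSS (2.28 ± 0.28, adjusted p = 0.0029). Plau, the urokinase protease, and Il1a, an interleukin found at up to 8.96 CPM, rose in Vortex against HSS (1.24 ± 0.24 and 3.15 ± 0.66, adjusted p = 0.0228 and 0.0272), and both calls ended without PSS replicate 1 or any HSS library (Il1a also without Vortex replicate 3). In Vortex against PSS the genes that rose were Ccl2, Ccl7, Ccl20, Cxcl1, Cxcl2, Csf1, Csf2, Il1a, Il6, Mmp10, Mmp13, Plat, Plaur, Igfbp6, Igfbp7 and Glb1. Apart from the binding proteins and Glb1, the lysosomal beta-galactosidase, these are chemokines, cytokines, and proteases or their receptor, which inflammation also induces. Vortex replicate 2 lay within or below the PSS range for Mmp13, Mmp10, Il6, Cxcl2, Csf2 and Igfbp6, and above it for the others. Mmp13 was at 669, 3.76 and 335 CPM in Vortex, 138 to 141 CPM in HSS and 7.22 to 8.51 CPM in PSS. Csf2 was found at up to 2.17 CPM. Over the list, Vortex ranges lay above PSS for 10 of 33 and below for 3, beside 15.6% and 14.4% of all genes. Inflammatory genes were already known to be higher in these samples, so the counts are not independent support. Of the list's nuclear genes, Hmgb1 and Hmgb2, chromatin proteins, fell in Vortex against PSS (-0.998 ± 0.19 and -1.38 ± 0.36, adjusted p = 0.0106 and 0.0378), and were chosen after their values were seen. Lmnb1, the gene of lamin B1, was chosen likewise and did not pass there. It was at 40.6, 192 and 72.7 CPM in Vortex and 167, 175 and 133 CPM in PSS. The Hmgb1 call held without each library in turn, and the Hmgb2 call held without Vortex replicate 1 or 2 only. The summed level of 6 leukocyte markers was 22.1 to 56.0 CPM in Vortex, 22.1 to 25.4 CPM in HSS and 6.82 to 7.72 CPM in PSS. Cd68 was at 33.2, 7.96 and 36.6 CPM in Vortex, 5.3 to 5.7 CPM in HSS and 3.7 to 5.0 CPM in PSS. Csf1r was at 17.1, 13.15 and 8.64 CPM in Vortex, 15.75 to 18.9 CPM in HSS and 1.36 to 2.8 CPM in PSS. Lyz2 was at 10.7 CPM in Vortex replicate 3 and at most 1.09 CPM elsewhere. Ptprc was at 0 in all Vortex libraries and at most 0.0526 CPM elsewhere, and Adgre1 and Itgam were at most at 0.368 CPM. The summed level of 6 fibroblast and pericyte markers was 60.8 to 655 CPM in Vortex, 351 to 368 CPM in HSS and 288 to 362 CPM in PSS. The part of these markers in the results was not tested. Of the Vortex calls given from the lists with a log2 fold change, those of Trib3, Ccl20 and Ccl2 against PSS and Atf4 against HSS passed in the fit of 6 libraries.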

How the data were processed

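Polyadenylated RNA of 9 bEnd.3 libraries, 3 per flow group, was analysed from 1 table of 31232 genes. The authors deposited whole-number read counts per gene, made with HISAT2 and HTSeq 0.13.5 on GRCm39 per the submitters' processing notes. FPKM values stand in the same table, scaled by the authors by gene length and library total, as the deposited values show. Genes were kept by filterByExpr (15774), scaled by TMM, and compared by the quasi-likelihood F test of edgeR 4.0.16 in R 4.3.3 with 1 mean per group over 9 libraries and Benjamini-Hochberg adjustment (threshold 0.05). DESeq2 1.42.0 and limma 3.58.1 served as alternatives. The SE was taken as the size of the fold change (log2) over the root of its F value. Members and lists were chosen with earlier results of these data known, and the GC alternatives after the data were seen. Genes named by rule are the members, the 2 smallest p of each list per comparison, and the 3 genes most like Cdkn1a and Mdm2. Fas, Bax, Rps27l, Ddit3, Hmgb1, Hmgb2, Lmnb1, Mcm2, Mcm3, the 16 senescence genes that rose, the marker genes and part of the heatmap were named after their values were seen. Total counts were 17407217 to 22965802, which limits the precision of genes with few counts. Lists are described by counts and medians, with no set test.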

Additional observations from a re-analysis of the deposited data

How the results depend on the processing

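Each result was recomputed under 21 alternatives. Of 1512 values of single genes and lists beside those counted below, 1234 kept direction and side of the threshold, 193 lost a call, 54 gained one and 31 reversed, and the cause was not tested. Calls of all tested genes for Vortex against PSS, Vortex against HSS and HSS against PSS were 2107, 1111 and 1242. They were 3489, 2700 and 2456 with the DESeq2 Wald test, 74, 66 and 6233 with only the 6 libraries compared, and 6085, 4265 and 4841 without both GC trend and Vortex replicate 2. With all genes of at least 1 count, Vortex against HSS had 713. Leaving out 1 library in turn gave 519 to 5888, 25 to 3887 and 285 to 4730. In Vortex against PSS fewest remained without 1 PSS library (519 to 1074). Without 1 HSS library fewest remained in Vortex against HSS (25 or 26) and in HSS against PSS (285 to 301). Members called (3, 1 and 0) were 3, 2 and 1 with DESeq2, 0, 0 and 6 with only the 6 libraries compared, 3, 2 and 2 with the GC trend removed, 5, 5 and 4 with Vortex replicate 2 also left out, and 0 to 5, 0 to 4 and 0 to 3 leaving out 1 library. Scaling by library totals shifted the median log2 fold change of all genes by -0.17 in Vortex against PSS and -0.14 in Vortex against HSS. The calls were then 835 higher and 1165 lower (1314 and 793 with TMM) and 458 and 542 (690 and 421 with TMM). With limma on log2(FPKM + 1) they were 743 and 1484, and 396 and 790. There Gdf15 lost its call in Vortex against PSS (1.50, adjusted p = 0.0644) and Ccng1 gained one (-0.73, adjusted p = 0.0472).

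The replicate block gave 1258, 357 and 772 calls over all genes and 2, 0 and 0 over the members. After subtraction of each group's mean, same-numbered libraries correlated at -0.123 to 0.118, and 4, 5 and 0 of 6 libraries correlated best with their own number. Correlations this weak, from 3 libraries per group, do not settle whether the numbers pair the libraries. Under the block Trp53inp1 was -0.4486 in Vortex against PSS and -0.0077 against HSS.

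Signs also turned as follows in Vortex against PSS. Mdm2 was -0.0109 with library totals, -0.0839 and -0.0914 on log2(FPKM + 1) and log2(FPKM + 0.1), and -0.2014 without Vortex replicate 1 (up to 0.4553 without replicate 2). Trp53inp1 was -0.0628 with library totals, -0.8928 with limma-voom, -0.5762 and -0.9346 on the FPKM scales and -1.5154 to 0.6493 leaving out 1 library. Trp53 was -0.124 and -0.133 on the FPKM scales, -0.4309 to 0.4683 leaving out 1 library, -0.1269 with the GC trend removed and -0.5717 with Vortex replicate 2 also left out. Cdkn2a (-0.1085), Cdkn2b (-0.0703) and Ccne2 (0.0957) turned with the GC trend removed. In Vortex against HSS, Trp53inp1 was -0.4095 with limma-voom, -0.1493 and -0.4273 on the FPKM scales and -0.9963 to 1.1431 leaving out 1 library. Leaving out 1 library gave -0.207 to 0.7174 for Trp53 and -0.0466 to 0.3763 for Cdkn1a, lowest without Vortex replicate 2, and the GC trend removed besides gave -0.2591 and -0.0835. In HSS against PSS, Cdkn1b was 0.0454 with the GC trend removed and 0.0443 with Vortex replicate 2 also left out, and leaving out 1 library gave -0.1435 to 0.0463 for Cdkn2b and -0.16 to 0.0274 for Cdkn2a.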
